A study of Mus musculus with 30 samples.

Results

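Antimycin A, an inhibitor of complex III of the mitochondrial respiratory chain, was compared with the DMSO control in mouse tail fibroblasts 48 hours after treatment. The comparison used 3 Antimycin A libraries and 6 DMSO libraries of the 30 in the series, chosen by the treatment label alone. Of 29861 genes in the deposited table, the 12981 that reached 1 TPM (transcript abundance scaled by transcript length and library total) in at least 3 of these 9 libraries were tested.

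The series holds 8 compounds with 3 libraries each, and its title concerns stress resistance of cells that does or does not depend on the antioxidant regulator NRF2. The cells were 1 fibroblast line, CCG-HTA-1, at passage 4, from tails of UMHet3 mice, which are a mixed-background stock. For all 9 libraries the labels give donor mice of 5 to 8 weeks, high-glucose medium without pyruvate, serum, ambient oxygen and compound addition 24 hours after plating at about 80% confluence. RNA was total RNA depleted of ribosomal RNA.

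The dose of Antimycin A is not given in the labels. Both groups share the line and the medium, and no genetic change is named for either. The labels name 1 line for every library and no separate animals, so the p-values measure only the spread between cultures or libraries, which may be technical.

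Complex III passes electrons from ubiquinol to cytochrome c. Antimycin A binds its inner quinone site, which stops electron flow, lowers respiration and lets electrons leak to oxygen as superoxide. Cells with impaired mitochondria are known to raise the transcription factor ATF4 through the integrated stress response, in which phosphorylation of the translation factor eIF2 favours translation of ATF4, and ATF4 in turn raises genes of amino acid supply. Type I interferon signalling works through transcription factors that bind interferon-stimulated response elements and raise antiviral genes.

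Sequencing depth cannot be read from TPM and is unknown, so precision rests on the spread between libraries. Between 12569 and 12700 genes reached 1 TPM in each of the 9 libraries. Library numbers run consecutively within each group, so treatment and library order cannot be told apart. A group of 6 repeat-rich predicted genes on chromosomes 2 and 9 was mostly higher in the libraries with the highest numbers. These genes were picked for their change against DMSO, so the gap between those groups is no independent check. Their summed level was 0.514 to 1.21 TPM in Antimycin A and 54.3 to 585 TPM in DMSO. The 9 libraries with the highest numbers, those of DMSO and Podofilox, held 48.3 to 585 TPM. The other 21 held 0.514 to 55.1 TPM, so the ranges overlapped, but the medians were 71.9 TPM for those 9 libraries and 2.44 TPM for the other 21. Direct comparisons with 2 other compounds are given at the end. Their differences of means use no DMSO library, but the gene filter and the spread behind their p-values do. Their groups also follow library order.

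All 10 fibroblast markers were expressed, with a summed level of 9036 to 9616 TPM in Antimycin A and 11950.0 to 13540.0 TPM in DMSO. The pan-leukocyte gene Ptprc was below 1 TPM in all 9 libraries and the T cell gene Cd3e was listed at 0. Ptprc had 0.24 to 0.39 TPM in Antimycin A and 0.60 to 0.88 TPM in DMSO.

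The 5 tested macrophage and leukocyte markers included Lyz2, which encodes lysozyme, and the 9 listed markers together summed to 102 to 116 TPM in Antimycin A and 192 to 252 TPM in DMSO. Summed keratinocyte markers reached at most 2.12 TPM in any of the 9 libraries, and summed skeletal muscle markers at most 1.21 TPM. The highest sums were larger for chondrocyte and bone (29.7 TPM), adipocyte (28.6 TPM), endothelial (8.75 TPM) and Schwann cell and neuron markers (4.92 TPM).

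A large part of the transcriptome differed between Antimycin A and DMSO, mostly by small amounts. Of the 12981 tested genes, 5064 (39%) passed an adjusted limma p of 0.05, with 2959 higher (22.8%) and 2105 lower (16.2%). That split depended on scaling, with 2591 higher and 2478 lower after median-ratio scaling, 2558 and 2649 under quantile normalization, and 2424 and 2468 when the 20 most abundant genes were left out of the total. The median size of a called change was 0.334 on the log2(TPM + 1) scale used for all fold changes, which understates changes of genes with low TPM. Values after ± are standard errors. Among called genes, 173 were at least 2-fold higher and 148 at least 2-fold lower. In 4177 genes (32.2%) the Antimycin A libraries all lay above or all below the DMSO range. The first principal component of the 9 libraries held 49.2% of the variance and separated the groups. Over all tested genes the median log2 fold change was 0.032, and each gene list below is to be read against that value and against the percentages just given.

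**Figure D1:**
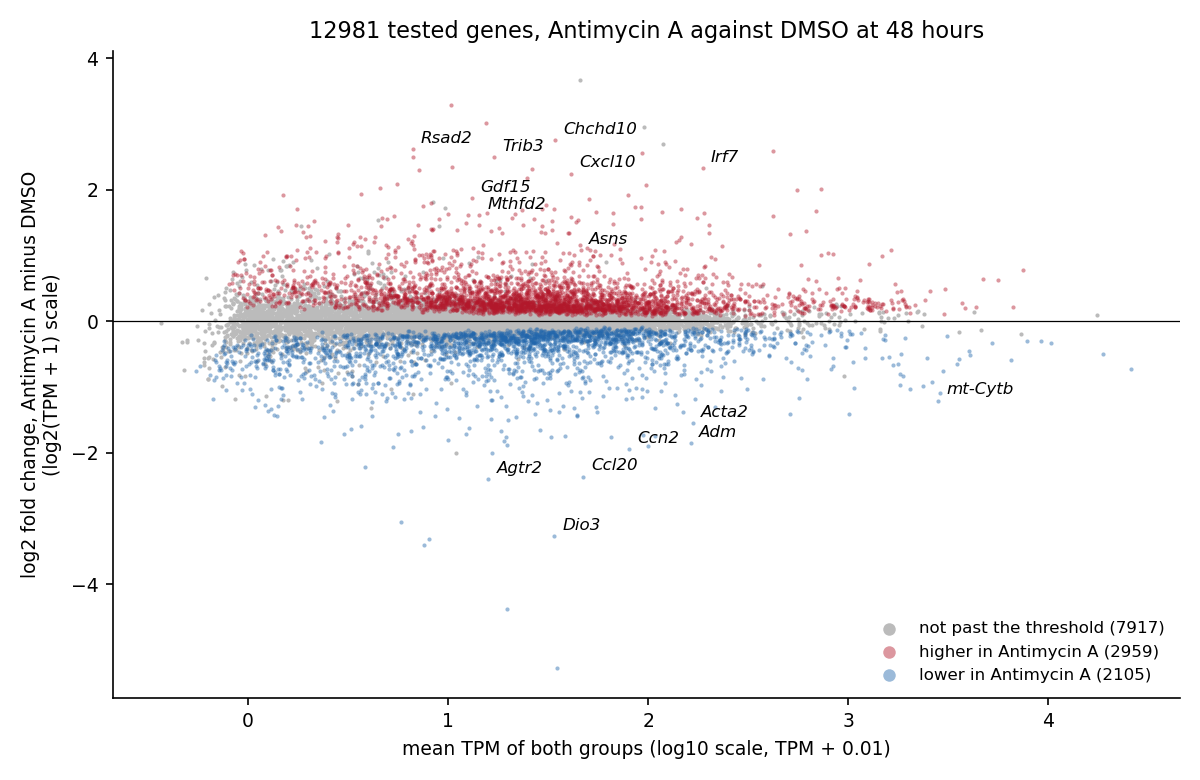
Each point is 1 of the 12981 tested genes, with mean TPM over both groups on a log10 axis and log2 fold change of Antimycin A against DMSO on the vertical axis. Red points (2959) were higher and blue points (2105) lower at an adjusted limma p of 0.05, and grey points did not pass. The 2 lowest points are the predicted genes Gm10800 and Gm10801, of the repeat-rich group that was mostly higher in the libraries with the highest numbers.

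The genes named first follow a rule that leaves out predicted genes and pseudogenes. The rule also requires every Antimycin A library to lie outside the DMSO range. Among these genes, the largest rises belonged to a mitochondrial protein, to a stress regulator and to interferon-inducible genes. Chchd10 had 64.8, 57.6 and 57.2 TPM in the Antimycin A libraries and 5.87 to 13.6 TPM (median 7.17) in DMSO, a log2 change of 2.76 ± 0.17 (limma adjusted p = 1.51e-12). Chchd10 (ENSMUSG00000049422, chromosome 10, positions 75933130 to 75937747 in GRCm38) encodes a small protein of the mitochondrial intermembrane space. The 3 treated libraries lay well above all 6 controls. Trib3 stood at 28.8, 28.3 and 31.2 TPM against 3.05 to 4.97 TPM (median 4.68) in DMSO, a log2 change of 2.5000 ± 0.096 (limma adjusted p = 2.26e-15). Trib3, a pseudokinase gene that ATF4 and CHOP activate, showed the same separation. The other 10 of the 12 largest rises were Rsad2 (2.62), Ifit3 (2.60), Ifit3b (2.56), Phf11b (2.503), Irf7 (2.34), Cxcl9 (2.32), Ifi44l (2.31), Cxcl10 (2.25), Tgtp2 (2.18) and Mx1 (2.10), values in brackets being log2 fold changes. Most of these are known interferon targets. Ifit3 shares 61.8% of its 31-base words with other genes, mainly its near copy, and for Ifit3b, Tgtp2 and Phf11b the share is 55.3%, 90.5% and 62.9%, so the split of reads between such copies is uncertain.

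Within the same rule, the largest fall was that of Dio3 (ENSMUSG00000075707, chromosome 12, positions 110279068 to 110281097), which encodes the deiodinase that inactivates thyroid hormone. Dio3 had 6.01, 6.28 and 4.16 TPM in the Antimycin A libraries and 43.1 to 83.99 TPM (median 60.001) in DMSO, a log2 change of −3.26 ± 0.15 (limma adjusted p = 2.1e-14). No Antimycin A library came near the DMSO range. Dlk1, at the other end of the same imprinted domain, did not pass the test (0.073 ± 0.088; limma adjusted p = 0.551). Rtl1, of the same domain, was below the filter and untested, at 0.20 to 0.26 TPM in Antimycin A and 0.50 to 0.72 TPM in DMSO. Of 7 genes listed for the domain, only 3 were matched. Agtr2 stood at 4.89, 4.18 and 4.003 TPM against 24.6 to 29.6 TPM (median 28.004) in DMSO, a log2 change of −2.40 ± 0.11 (limma adjusted p = 1.42e-14). Agtr2 encodes the type 2 angiotensin receptor. With Antimycin A, Ccl20 reached 12.01, 17.2 and 14.9 TPM, and with DMSO 62.7 to 95.5 TPM (median 79.2), a log2 change of −2.36 ± 0.13 (limma adjusted p = 3.84e-13). This chemokine gene was lower in every treated library than in any control.

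The other 9 of the 12 largest falls were Pi16 (−1.997), Ccn2 (−1.94), Pde9a (−1.91), Lyz2 (−1.90), Lrrc17 (−1.88), Adm (−1.85), Serpina3c (−1.81), Lgr5 (−1.80) and Hp (−1.76). Among them, Ccn2 encodes a matricellular growth factor, Pde9a a phosphodiesterase specific for cyclic GMP, Adm the vasodilator peptide adrenomedullin, Hp haptoglobin and Lgr5 a receptor for R-spondins.

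**Figure D2:**
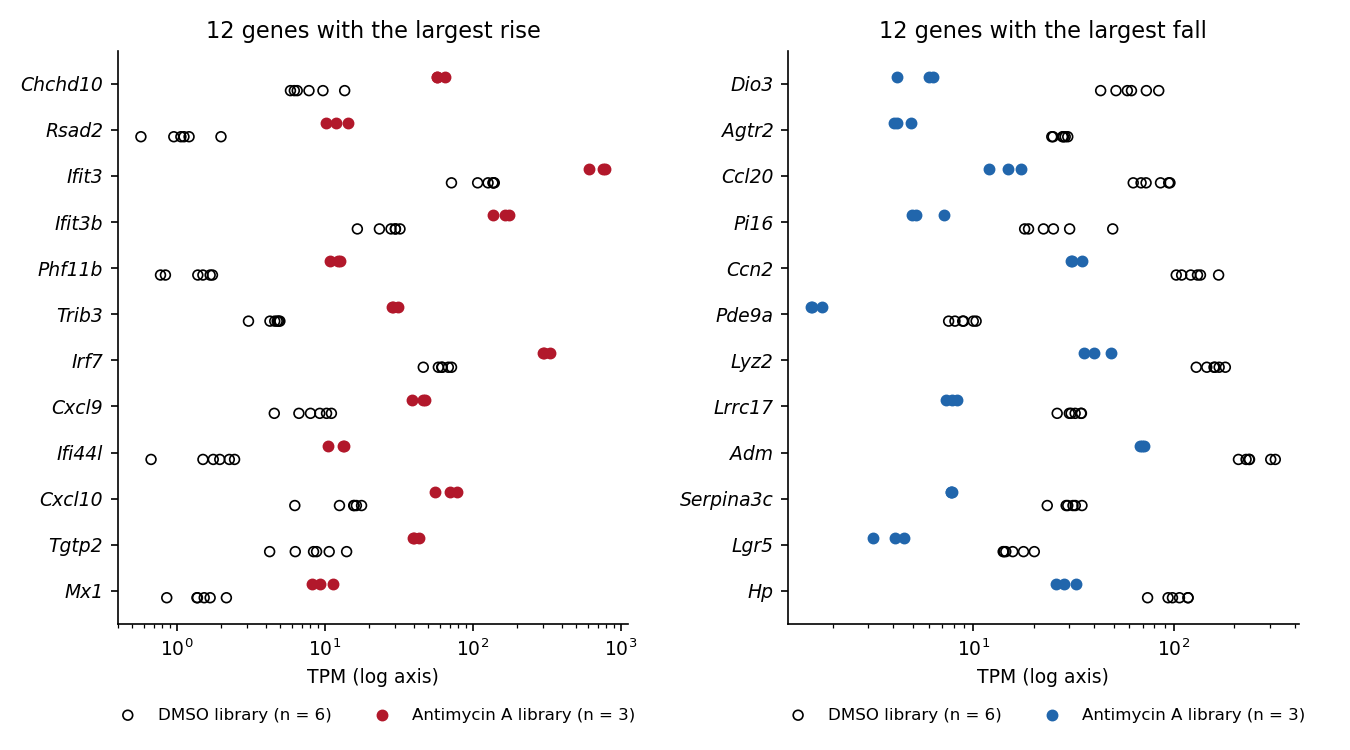
TPM in each library, on a log axis, for the 12 genes with the largest rise (left) and the 12 with the largest fall (right), with filled circles for the 3 Antimycin A libraries and open circles for the 6 DMSO libraries. In every one of the 24 genes the Antimycin A libraries lie outside the DMSO range, as the naming rule required.

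Many genes of the integrated stress response and of its amino acid targets rose. Of 21 regulators and direct targets 11 rose and 1 fell, with a median log2 fold change of 0.38. For Atf4 the values were 212, 214 and 210.2 TPM in Antimycin A and 125 to 144 TPM (median 134) in DMSO, a log2 change of 0.66 ± 0.043 (limma adjusted p = 7.94e-12). The groups did not overlap for this central factor. Atf5 had 179.5, 200.3 and 197 TPM in the Antimycin A libraries and 78.9 to 86.6 TPM (median 82.8) in DMSO, a log2 change of 1.21 ± 0.05 (limma adjusted p = 3.62e-15). Atf5, a related factor linked to mitochondrial protein stress, rose clearly. Ddit3 stood at 216, 202 and 199.8 TPM against 78.5 to 97.04 TPM (median 82.5) in DMSO, a log2 change of 1.28 ± 0.071 (limma adjusted p = 4.12e-13). Ddit3 encodes CHOP, and its lowest treated library was above its highest control.

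Chac1, whose product degrades glutathione, had 12.2, 13.1 and 14.3 TPM against 2.35 to 3.95 TPM (median 3.12) in DMSO, a log2 change of 1.80 ± 0.13 (limma adjusted p = 2.67e-11). Further rises were seen for Vldlr (0.98), Atf3 (0.94), Nupr1 (0.85) and Sesn2 (0.59). Of the 4 kinases that phosphorylate eIF2, Eif2ak2 (PKR), itself an interferon target, rose by 0.49, Eif2ak3 (PERK) fell by 0.45 on the log2 scale, and Eif2ak1 (0.023) and Eif2ak4 (0.11) did not pass. Neither did Dele1 (0.12) or Oma1 (0.045), which carry a mitochondrial signal to the kinase HRI. The secreted stress hormone Gdf15 stood at 21.3, 21.7 and 20.5 TPM against 3.87 to 5.92 TPM (median 5.10) in DMSO, a log2 change of 1.88 ± 0.091 (limma adjusted p = 5.09e-14). Fgf21, the other secreted factor listed with it, stayed below 1 TPM in all 9 libraries and did not enter the test, and it was called higher when no filter was used.

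Amino acid and one-carbon genes moved unevenly. In serine synthesis, Phgdh rose by 1.06 ± 0.097 and Psat1 by 0.68 ± 0.099 (limma adjusted p = 2.85e-09 and 4.28e-06), whereas Psph, the last step, had −0.15 and did not pass. Phgdh shares 56.3% of its 31-base words with other genes. With Antimycin A, Asns reached 56.7, 67.3 and 64.5 TPM, and with DMSO 26.5 to 32.8 TPM (median 28.3), a log2 change of 1.08 ± 0.081 (limma adjusted p = 9.35e-11). Asns makes asparagine and is a standard ATF4 target. Mthfd2 had 19.5, 23.3 and 22.6 TPM in the Antimycin A libraries and 4.57 to 10.1 TPM (median 5.95) in DMSO, a log2 change of 1.62 ± 0.14 (limma adjusted p = 1.62e-09). Mthfd2, the mitochondrial folate enzyme, rose most among 10 tested one-carbon enzymes, of which 4 rose and 1 fell. The single fall was not called when any 1 of the 3 Antimycin A libraries was left out.

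The proline enzyme Pycr1 went the other way, with 8.35, 6.07 and 7.59 TPM against 13.9 to 19.3 TPM (median 17.5) in DMSO, a log2 change of −1.12 ± 0.12 (limma adjusted p = 5.62e-08). Its groups did not overlap. Of all 15 tested synthesis genes 6 rose and 2 fell, with a median of 0.067. Of 11 amino acid transporters 6 rose and 1 fell, the risen ones including Slc38a1 (0.91), Slc7a5 (0.89), Slc7a1 (0.56) and Slc7a11 (0.4997) and the fallen one being Slc38a2 (−0.30). Of 20 cytosolic aminoacyl-tRNA synthetases 14 rose and none fell, led by Cars (0.91), Aars (0.84), Sars (0.58) and Mars (0.57). Mars and Sars charge tRNA with methionine and serine, Cars and Aars with cysteine and alanine.

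The promoters of the risen genes were searched for the core of the amino acid response element that ATF4 binds, spelled TGATGNAA, on both strands, in windows of 300 bases from RefSeq (GRCm38.p6), with 250 bases before and 50 from the start site on. Of 42 members that rose among the stress response, amino acid, one-carbon, transporter and synthetase lists, with Gdf15, 33 had a window, and 14 of these (42.4%) held a match. Among the 27 other tested members with a window, 1 did (3.7%). The share was 2.77% over the 9794 tested genes with a window and 3.97% over all 32851 windows. Matches to this motif overlapped a match to the interferon element described later in 10 windows. A match is a description of the letters, not a site of binding. The lists hold known ATF4 targets beside other genes and were chosen with earlier results of these data known. The difference in share therefore describes these lists and cannot be tied to the rise. The stretches around the match in the 4 matched genes with the largest rise follow, on the gene's strand, with the match in capitals, because they show how near to the start site the element lies.

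Trib3 (chr2:152344031-152344076, minus strand): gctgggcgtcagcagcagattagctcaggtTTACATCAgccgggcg
Chac1 (chr2:119351019-119351086, plus strand): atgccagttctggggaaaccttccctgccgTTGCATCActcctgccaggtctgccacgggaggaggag
Asns (chr6:7693195-7693262, minus strand): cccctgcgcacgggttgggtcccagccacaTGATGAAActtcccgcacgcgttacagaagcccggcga
Vldlr (chr19:27216790-27216857, plus strand): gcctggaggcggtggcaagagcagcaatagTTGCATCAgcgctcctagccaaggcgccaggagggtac

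The match lay 15 bases after the start site in Trib3, 23 bases before it in Asns, 193 before it in Chac1 and 200 before it in Vldlr. Only in Asns did the match read on the gene's own strand among these 4.

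Chaperone genes rose in mitochondria and mostly fell in the endoplasmic reticulum. Of 17 mitochondrial chaperones, proteases and CHCHD proteins 11 rose and none fell, with a median of 0.17. Besides Chchd10, the largest were the inner membrane protease gene Afg3l2 (0.69), the import chaperone mortalin Hspa9 (0.60) and the matrix protease Lonp1 (0.39). For Hspa9 the values were 224, 221 and 230.4 TPM in Antimycin A and 145 to 161 TPM (median 145) in DMSO, a log2 change of 0.60 ± 0.035 (limma adjusted p = 7.22e-13). The treated libraries were all above the controls. The chaperonin genes rose less, Hspd1 by 0.12 and Hspe1 by 0.17, and their calls were lost in 14 and 6 of 20 other ways of processing.

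Of 20 genes of the unfolded protein response of the endoplasmic reticulum 2 rose and 12 fell, with a median of −0.14. The 2 that rose were the sensors Atf6 (0.27) and Ern1 (0.24). Hspa5 stood at 485, 472 and 504 TPM against 655 to 724 TPM (median 678) in DMSO, a log2 change of −0.48 ± 0.046 (limma adjusted p = 5.04e-09). Hspa5 encodes BiP, the main chaperone of that compartment. The groups did not overlap. Falls were also seen in Dnajc3 (−0.55), Manf (−0.36), Xbp1 (−0.36) and Calr (−0.29). Of 13 cytosolic heat shock genes 2 rose and 4 fell, with rises in Hspb1 (0.59) and Hspa4l (0.58) and falls in Hspa1b (−1.05) and Hspa1a (−0.41), a pair of near copies that share about 70.1% (Hspa1a) and 68.1% (Hspa1b) of their 31-base words with other genes. The Hspa1a call was lost without Antimycin A replicate 2.

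**Figure D3:**
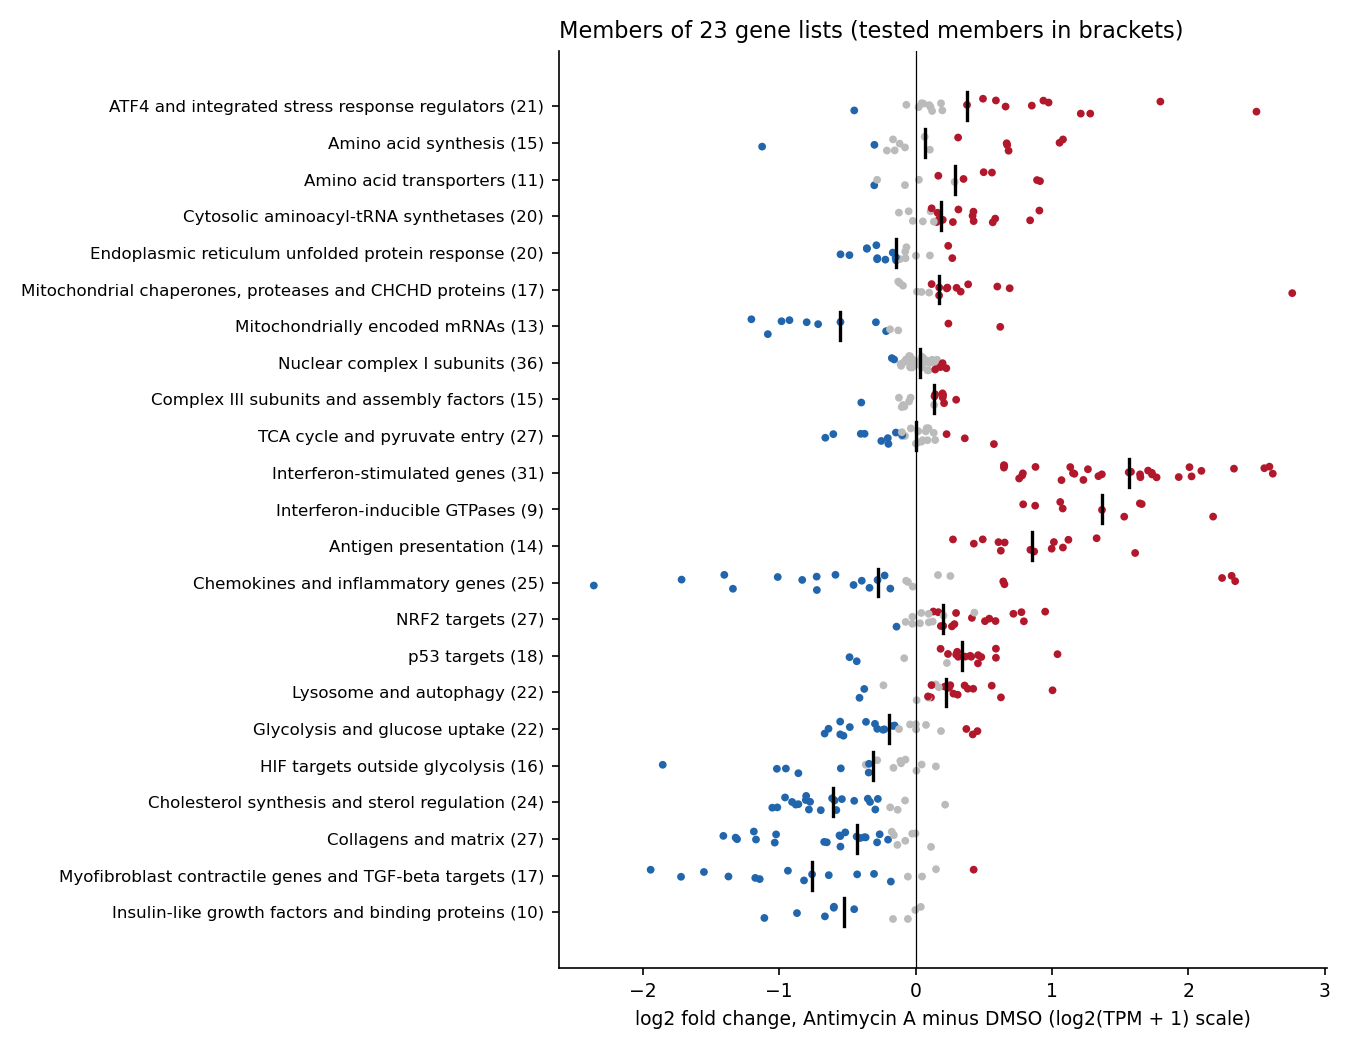
Log2 fold changes of Antimycin A against DMSO for the tested members of 23 gene lists, 1 point per gene, with red for called higher, blue for called lower, grey for not passing and a black bar at the list's median. All 31 interferon-stimulated genes are red, with a median of 1.56, and the cholesterol genes have a median of −0.60.

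Most messenger RNAs encoded by the mitochondrial genome fell, by the most from mt-Nd4l to mt-Cytb and in the ATP synthase genes. Of the 13, 2 rose and 9 fell, with a median of −0.55. mt-Cytb had 1685, 1719.5 and 1690.3 TPM in the Antimycin A libraries and 3473 to 4273 TPM (median 3941) in DMSO, a log2 change of −1.20 ± 0.063 (limma adjusted p = 1.77e-13). mt-Cytb encodes cytochrome b, the subunit of complex III that carries the antimycin site, and its level in each treated library was under the lowest control. With Antimycin A, mt-Nd4 reached 1561, 1591 and 1590.5 TPM, and with DMSO 2638 to 3527 TPM (median 3163), a log2 change of −0.98 ± 0.081 (limma adjusted p = 4.58e-10). mt-Nd4 encodes a complex I subunit, and its groups did not overlap either.

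Along the genome, the 5 genes from mt-Nd4l to mt-Cytb had log2 fold changes of −1.08, −0.98, −0.55, −0.80 and −1.20, and the ATP synthase genes mt-Atp8 and mt-Atp6 had −0.71 and −0.92. The genes nearest the ribosomal RNAs changed less, with −0.22 for mt-Nd1 and 0.24 for mt-Nd2. mt-Nd1 lost its call under quantile normalization and mt-Nd2 without Antimycin A replicate 1. The rise of mt-Nd3 (0.62) lost its call in 5 of 20 alternatives, those without Antimycin A replicate 1 or 3 among them, so neither rise was called without replicate 1. Only mt-Nd6 is read from the light strand. Whether the authors' counting used strand is not given in the sources used here, so reads of mt-Nd6 and of the genes opposite it cannot be told apart.

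Several of these genes have near-identical nuclear copies that also carry TPM. The share of 31-base words found elsewhere was 99.9% for mt-Co3 and 98.1% for mt-Nd3, but 6.55% for mt-Cytb and none for mt-Nd1, while every such word of mt-Co2 occurs elsewhere. In a check added after seeing the data, each gene was summed with its copies. The log2 fold change became −0.33 for mt-Co2, −0.27 for mt-Co3, −0.77 for mt-Atp6 and −0.15 for mt-Co1, whose groups then overlapped. For mt-Nd3 the rise of 0.62 became 0.24. The sums took in only nuclear copies that share at least 100 of the 31-base words. Of the other 8 genes, mt-Nd1, mt-Atp8, mt-Nd6 and mt-Cytb had no such copy, so their values could not change. The copies of mt-Nd2, mt-Nd4l, mt-Nd4 and mt-Nd5 held at most 0.375 TPM by group mean. Their fold changes were the same to the digits given.

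As a share of deposited TPM, the 13 genes took 3.64% to 3.93% in Antimycin A and 4.62% to 5.39% in DMSO. With the copies included the ranges were 4.91% to 5.29% and 6.09% to 7.25%, so the groups stayed apart.

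**Figure D4:**
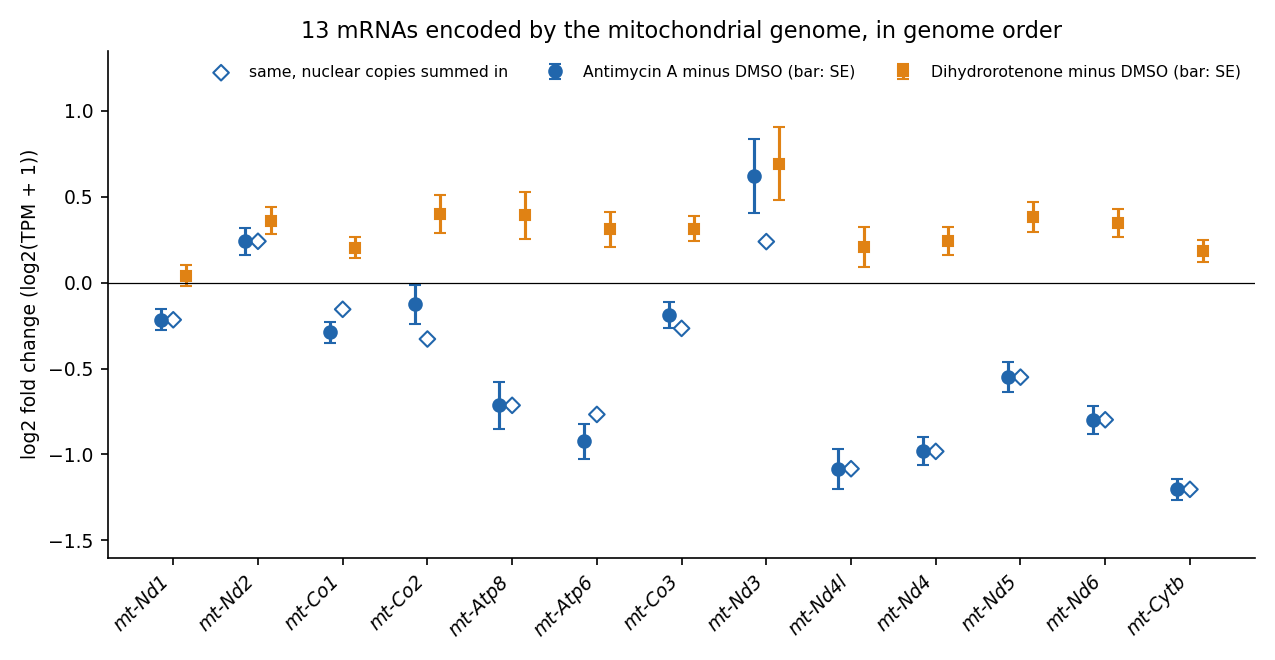
Log2 fold change against DMSO for the 13 mitochondrial mRNAs in genome order, with circles and SE bars for Antimycin A, open diamonds for Antimycin A after nuclear copies were summed in, and squares with SE bars for Dihydrorotenone, an inhibitor of complex I. From mt-Nd4l to mt-Cytb all Antimycin A points lie between −0.55 and −1.20 while the Dihydrorotenone points lie above 0.

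Nuclear genes of the respiratory chain changed little. For complex III, the target of the compound, 7 rose and 1 fell among 15 subunits and assembly factors, with a median of 0.14. The rises reached at most 0.30 (Uqcc2), and the fall was that of the assembly factor Uqcc1 (−0.40), whose libraries overlapped between the groups. After median-ratio scaling the counts of rises and falls were 3 and 1. Of 36 complex I genes 5 rose and 2 fell, or 1 and 2 after median-ratio scaling, with a median of 0.033 as deposited that changed sign under quantile normalization. Of 13 complex IV genes 4 rose and 1 fell, of 15 ATP synthase genes 4 rose and none fell, and of 4 complex II genes 2 rose and 1 fell. Of 27 genes of the citric acid cycle and pyruvate entry 3 rose and 9 fell, with rises in Pck2 (0.57), the mitochondrial enzyme that makes phosphoenolpyruvate and an ATF4 target, and Idh2 (0.36).

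The pyruvate dehydrogenase kinases Pdk1 (−0.66), Pdk4 (−0.40) and Pdk2 (−0.25) fell. Idh3a was lower by 0.60 on the log2 scale as fitted, but its call was lost in 9 of 20 alternatives. Of 12 pyrimidine genes, a route that needs the respiratory chain at Dhodh, Umps rose (0.57), Ctps fell (−0.89) and Dhodh itself did not pass (0.09). Of 49 mitochondrial ribosomal protein genes 16 rose and 1 fell, with 10 calls in all without Antimycin A replicate 1. Of 53 cytosolic ribosomal protein genes 38 rose and none fell, with a median of 0.23, and under quantile normalization the counts were 28 and 1.

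All tested members of 2 lists, interferon-stimulated genes and interferon-inducible GTPases, rose, whereas interferon receptors and nucleic acid sensors were mixed. All 31 tested interferon-stimulated genes rose, by 0.65 to 2.62 with a median of 1.56, and their summed level went from 1003 to 1582 TPM in DMSO to 4116 to 4848 TPM in Antimycin A. Rsad2 had 14.3, 11.8 and 10.1 TPM in the Antimycin A libraries and 0.572 to 1.99 TPM (median 1.09) in DMSO, a log2 change of 2.62 ± 0.15 (limma adjusted p = 7.08e-13). Rsad2 (ENSMUSG00000020641, chromosome 12, positions 26442746 to 26456452) encodes viperin, an antiviral enzyme. Irf7 stood at 333, 303 and 301 TPM against 46.4 to 71.97 TPM (median 62.01) in DMSO, a log2 change of 2.34 ± 0.13 (limma adjusted p = 6.44e-13). Irf7 encodes the factor that amplifies type I interferon output. For Mx1 the values were 11.4, 9.28 and 8.22 TPM in Antimycin A and 0.855 to 2.16 TPM (median 1.46) in DMSO, a log2 change of 2.10 ± 0.14 (limma adjusted p = 1.27e-11). Mx1 encodes an antiviral GTPase. The groups did not overlap in any of these 3 genes, as the naming rule required.

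With Antimycin A, Isg15 reached 271, 282 and 238 TPM, and with DMSO 70.1 to 113 TPM (median 85.1), a log2 change of 1.58 ± 0.15 (limma adjusted p = 5.05e-09). Isg15, a ubiquitin-like modifier, was among the more abundant members. The signalling genes Stat2 (0.79) and Irf9 (0.65) and the RNA sensors Ifih1 (0.78) and Ddx58 (0.65) rose less. All 9 tested interferon-inducible GTPases rose as well, with a median of 1.37, led by Tgtp2 (2.18), Irgm1 (1.66) and Gbp3 (1.65). Among both lists, Oas3 and Tgtp1 reached the filter through Antimycin A libraries alone, so these 2 could enter the counts only by being higher and add nothing to them. Any members with some DMSO libraries at 1 TPM, but too few to pass without Antimycin A, were not singled out. Of the 12 listed GTPases, Gbp4 stayed below 1 TPM and 2 symbols were not matched.

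Interferon genes themselves were hardly seen. Ifna4 and Ifnl2 were listed at 0 in all 9 libraries, and Ifnb1 was above 0 in 1 Antimycin A library (0.186 TPM) and 1 DMSO library (0.0953 TPM). None of the 3 could be tested. Of 17 tested receptors and sensors 6 rose and 3 fell, with a median of 0.055. The nucleotide hydrolase gene Samhd1 (0.69), the exonuclease gene Trex1 (0.61) and the RNA editor Adar (0.53) rose, and Trex1 shares 97.6% of its 31-base words with other genes.

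The interferon gamma receptor chain Ifngr1 fell (−0.83), as did Tmem173 (−0.54), which encodes the DNA-sensing adaptor STING. Cgas had 0.19, Mavs −0.015, Tbk1 −0.019 and Ifnar1 −0.047, and of these only Cgas passed, with its call lost in 6 of 19 alternatives. Irf3 had 15.2, 6.51 and 11.9 TPM against 3.31 to 8.63 TPM (median 4.33), a log2 change of 1.004 ± 0.37 (limma adjusted p = 0.0321), a call that was lost in 6 of 20 alternatives, including the one without Antimycin A replicate 1.

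Antigen presentation genes rose too, 14 of 14 tested, with a median of 0.86. H2-K1 had 2049, 1948 and 1906 TPM in the Antimycin A libraries and 889 to 1130.5 TPM (median 978) in DMSO, a log2 change of 0.998 ± 0.071 (limma adjusted p = 3.38e-11). H2-K1 encodes a classical class I molecule, and its treated libraries were all above the controls. Tap1 (1.12), a peptide transporter subunit, and the immunoproteasome genes Psmb8 (1.08) and Psmb9 (1.01) rose together with the light chain B2m (0.63) and the regulator Nlrc5 (0.84). The class I genes share sequence with one another, for H2-Q4 53% of 31-base words, so values for single class I genes are uncertain.

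The interferon-stimulated response element core GAAANNGAA was searched in the same promoter windows. Of the 31 risen interferon-stimulated genes 20 had a window, and 12 of these (60%) held the motif, Oas3 among them, against 8.58% of tested genes and 8.56% of all windows. All tested members of this list rose, so no other members were left to compare. The share therefore describes a list of known interferon targets and cannot be tied to the rise. Matches could overlap one another. The 4 matched genes with the largest rise are shown, because the number and spacing of elements differ among them.

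Rsad2 (chr12:26456533-26456601, minus strand): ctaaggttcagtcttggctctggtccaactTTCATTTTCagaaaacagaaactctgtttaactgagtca
Ifit3 (chr19:34583344-34583465, plus strand): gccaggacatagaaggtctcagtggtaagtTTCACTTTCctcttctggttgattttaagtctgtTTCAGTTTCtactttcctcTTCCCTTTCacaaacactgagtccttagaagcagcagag
Ifit3b (chr19:34607740-34607861, plus strand): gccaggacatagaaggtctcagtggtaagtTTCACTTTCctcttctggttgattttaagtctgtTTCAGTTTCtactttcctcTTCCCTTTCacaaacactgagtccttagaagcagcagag
Bst2 (chr8:71537558-71537632, minus strand): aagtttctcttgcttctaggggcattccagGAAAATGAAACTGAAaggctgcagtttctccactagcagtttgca

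Rsad2 held 1 match, Bst2 a pair that overlapped, and Ifit3 and Ifit3b 3 each. The printed stretches of Ifit3 and Ifit3b were identical in all 122 bases, and the first match lay 155 bases before the start site in Ifit3 and 187 in Ifit3b. Bst2, which encodes tetherin, rose by 2.01.

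Inflammatory genes split. Of 25 tested, 5 rose and 15 fell. The risen ones were the CXCR3 ligands Cxcl9 (2.32), Cxcl10 (2.25) and Cxcl11 (2.34), which interferon induces, and Ccl5 (0.65) and Ccl8 (0.64). Cxcl10 stood at 70.04, 78.6 and 55.9 TPM against 6.28 to 17.7 TPM (median 15.7) in DMSO, a log2 change of 2.25 ± 0.19 (limma adjusted p = 1.03e-09). No control reached the lowest treated library, as the naming rule required. Cxcl11 is annotated as a polymorphic pseudogene in this reference and shares 42.2% of its 31-base words.

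The fallen ones included Ccl20 (−2.36), Il6 (−1.34), Cxcl1 (−1.01), Lcn2 (−0.83), Saa3 (−0.72), Ptgs2 (−0.72) and Nfkbia (−0.39), although the change of Saa3 was −0.12 and not called under quantile normalization. With Antimycin A, Il6 reached 4.63, 3.78 and 7.19 TPM, and with DMSO 10.03 to 18.5 TPM (median 15.5), a log2 change of −1.34 ± 0.24 (limma adjusted p = 5.73e-05). Il1rn had 3.98, 6.25 and 5.37 TPM in the Antimycin A libraries and 13.7 to 24.6 TPM (median 19.6) in DMSO, a log2 change of −1.72 ± 0.21 (limma adjusted p = 4.91e-07). Il1rn encodes the interleukin 1 receptor antagonist, and Il6 the cytokine interleukin 6. Both fell in every treated library below every control.

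Macrophage markers moved with these genes. For Lyz2 the values were 40.1, 35.6 and 48.6 TPM in Antimycin A and 129 to 180.4 TPM (median 159) in DMSO, a log2 change of −1.90 ± 0.087 (limma adjusted p = 2.04e-14). Adgre1 (−1.66) and Csf1r (−0.81) fell as well, Cd14 (0.27) rose and Cd68 (0.13) did not pass. Below the filter and untested, Ptprc and Itgam were lower in every Antimycin A library than in any DMSO library. Cd79a, also untested, overlapped between the groups, and Cd3e was at 0 throughout. In bulk RNA, fewer cells of a type and less RNA per cell cannot be told apart, and the part of such cells in the inflammatory falls was not tested.

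Genes of cholesterol supply fell nearly throughout, and none rose. Of 24 tested, 20 were lower, with a median of −0.60 and a summed level of 460.0 to 463 TPM in Antimycin A against 625 to 791 TPM in DMSO. Hmgcs1 had 26.96, 26.2 and 25.5 TPM in the Antimycin A libraries and 48.9 to 65.4 TPM (median 55.5) in DMSO, a log2 change of −1.05 ± 0.071 (limma adjusted p = 1.55e-11). Hmgcs1 encodes an early enzyme of the pathway, and its treated libraries lay below the controls.

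Further falls were Idi1 (−0.96), Fdps (−0.91), Sqle (−0.86) and Insig1 (−0.77), and the regulators Srebf2 (−0.28) and Srebf1 (−0.35) fell less. Those that did not pass included Abca1 (0.22), Fdft1 (−0.077) and Pmvk (−0.19). Of 20 fatty acid genes 1 rose and 9 fell. With Antimycin A, Scd1 reached 18.8, 17.6 and 19.3 TPM, and with DMSO 37.6 to 51.03 TPM (median 43.7), a log2 change of −1.19 ± 0.069 (limma adjusted p = 8.14e-13). Scd1, the fatty acid desaturase, fell with Fads2 (−0.85) and Fasn (−0.81), and the oxidation gene Acadl rose (0.33), while the carnitine transferase Cpt1a did not pass (−0.0001).

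Matrix and myofibroblast genes fell together. Of 27 collagens and other matrix genes, 20 were lower and none higher, with a median of −0.43. For Dcn the values were 531, 536 and 595 TPM in Antimycin A and 1390.0 to 1526 TPM (median 1484) in DMSO, a log2 change of −1.41 ± 0.078 (limma adjusted p = 4.12e-13). Dcn encodes decorin, a proteoglycan that binds collagen. Col3a1 stood at 1408, 1192 and 1430.0 TPM against 2486 to 3027 TPM (median 2737) in DMSO, a log2 change of −1.02 ± 0.096 (limma adjusted p = 4.15e-09). Neither gene's groups overlapped. Col1a1 (−0.56), Fn1 (−0.52), Tnc (−1.32) and Lum (−1.31) were also lower.

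Of 17 contractile genes and TGF-beta targets 1 rose and 13 fell, with a median of −0.76. Ccn2 had 30.5, 31.1 and 34.8 TPM in the Antimycin A libraries and 103 to 167 TPM (median 126) in DMSO, a log2 change of −1.94 ± 0.19 (limma adjusted p = 1.22e-08). With Antimycin A, Acta2 reached 76.8, 84.2 and 90.6 TPM, and with DMSO 194 to 323 TPM (median 248), a log2 change of −1.55 ± 0.14 (limma adjusted p = 2.09e-09). Acta2 encodes the smooth muscle actin that defines myofibroblasts. Ccn1 (−1.37) fell, and Tgfb1 itself rose (0.43). The treated libraries were below all controls for Acta2, and for Ccn2, where the naming rule required it.

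Of 14 matrix proteases and inhibitors 4 rose and 7 fell, with Mmp11 (1.68) the largest rise and the inhibitor Timp3 (−1.06) the largest fall. No insulin-like growth factor gene rose, and 6 of 10 fell, including Igf2 (−1.11), Igfbp7 (−0.87) and the receptor Igf1r (−0.60). Igf2 shares 63.1% of its 31-base words with other annotated genes. Of the 10 fibroblast markers, 8 fell, Vim rose (0.49) and Pdgfra did not pass (−0.0065), so several genes that mark the cell type moved with the treatment.

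No tested target of the hypoxia factor HIF outside glycolysis was called higher. Of 16 tested, 7 fell, with a median of −0.31. Adm had 71.05, 67.4 and 69.6 TPM in the Antimycin A libraries and 209.7 to 320.1 TPM (median 237) in DMSO, a log2 change of −1.85 ± 0.098 (limma adjusted p = 1.86e-13). The 3 treated libraries were far below the controls, although the naming rule already required them to lie outside the DMSO range. Ndufa4l2 (−1.02), P4ha2 (−0.95) and Egln3 (−0.55) fell, and Vegfa (0.0069) and Hif1a (−0.074) did not pass. Of 22 genes of glycolysis and glucose uptake 3 rose and 13 fell, with a median of −0.20. Ldha stood at 387, 393 and 400.4 TPM against 513 to 672 TPM (median 565) in DMSO, a log2 change of −0.55 ± 0.082 (limma adjusted p = 6e-06). Ldha encodes the lactate dehydrogenase subunit typical of glycolytic cells, and its groups did not overlap. Pfkfb3 (−0.67), Pfkl (−0.64) and the lactate exporter Slc16a3 (−0.55) fell, and the glucose transporter Slc2a1 (0.45), Ldhb (0.42) and Hk2 (0.37) rose. The Slc16a3 call was lost without Antimycin A replicate 1 or 2.

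Many NRF2 targets rose by small amounts. Of 27, 15 rose and 1 fell, with a median of 0.20. With Antimycin A, Gsta4 reached 284, 299.6 and 265 TPM, and with DMSO 121 to 182 TPM (median 144), a log2 change of 0.95 ± 0.076 (limma adjusted p = 2.93e-10). Gclm had 152, 166 and 152 TPM in the Antimycin A libraries and 92.3 to 122 TPM (median 117) in DMSO, a log2 change of 0.51 ± 0.072 (limma adjusted p = 3.23e-06). Gsta4 encodes a glutathione transferase and Gclm a subunit of the enzyme that starts glutathione synthesis, and in both every treated library was above the controls. Nqo1, a quinone reductase and a standard NRF2 reporter, rose by 0.41 ± 0.069 (limma adjusted p = 3.07e-05), and Hmox1 (0.17) and Txnrd1 (0.042) did not pass. Ftl1 (0.78), Taldo1 (0.72) and Gsr (0.54) rose, with 64.1% of the 31-base words of Ftl1 shared.

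The antioxidant response element core TGACNNNGC was in 5 of 12 windows of risen members (41.7%), in 5 of 10 of the other tested members (50%) and in 16.6% of tested genes (12.4% of all windows), so no stretch is printed. Of 20 enzymes that remove superoxide and peroxide 8 rose and 5 fell. Cytosolic Prdx1 (0.47), Prdx6 (0.40) and Sod1 (0.24) rose, secreted Sod3 (−0.80) and Gpx3 (−0.55) fell, and mitochondrial Sod2 (0.041) did not pass.

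Most listed p53 targets and lysosomal genes rose. Of 18 p53 targets 14 rose and 2 fell, with a median of 0.34. For Gadd45a the values were 1074, 1054 and 1064 TPM in Antimycin A and 441 to 642 TPM (median 504) in DMSO, a log2 change of 1.04 ± 0.079 (limma adjusted p = 1.23e-10). Gadd45a, a DNA damage and stress gene that ATF4 can also raise, had no overlap between groups. Mdm2 (0.41), Cdkn1a (0.36) and Bbc3 (0.48) rose, and Fas (−0.48) and Sesn1 (−0.43) fell. Of 22 lysosome and autophagy genes 15 rose and 2 fell, led by Ctsk (1.005), Sqstm1 (0.63) and Npc1 (0.56).

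Of the replication and mitosis genes, 7 were below 1 TPM in all 9 libraries. Of 22 tested, 7 rose and 1 fell, led by the licensing genes Cdt1 (1.17) and Mcm3 (0.82), and Cdk1 rose (0.66). Of 20 genes of mitochondrial dynamics, mitophagy and biogenesis 4 rose and 2 fell, and the mitophagy receptor Optn rose most (0.93), while Pink1 (−0.027) and Tfam (0.086) did not pass. The coactivator Ppargc1a stayed below 1 TPM in all 9 libraries.

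Antimycin A was then compared directly with Dihydrorotenone, which blocks the respiratory chain at complex I, in the same fit. Stress and interferon genes were higher with Antimycin A, and mitochondrial mRNAs lower. Doses are not in the labels, so the difference is between these cultures and not at matched doses. Of 12981 genes 2137 differed (16.5%), 1596 higher in Antimycin A (12.3%) and 541 lower (4.17%). This split too depended on scaling, with 982 higher and 902 lower after median-ratio scaling, 999 and 956 under quantile normalization, and 1246 and 616 when the 20 most abundant genes were left out of the total. The donor mice of Dihydrorotenone replicate 1 are given an age of 8 to 11 weeks, unlike the other libraries used here, although the labels name the same line for it. Without that library 1603 genes differed, 1069 higher and 534 lower. The count was 1439 without Antimycin A replicate 1 and 1554 when only those groups were fitted.

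The stress regulators differed, with 13 of 21 higher in Antimycin A and none lower. Trib3 was higher by 2.66 ± 0.11, Chac1 by 2.19 ± 0.14 and Mthfd2 by 2.16 ± 0.17 (limma adjusted p = 8.29e-15, 1.23e-10 and 1.51e-09). Dihydrorotenone itself left Trib3 at −0.16, Atf4 at −0.07 and Asns at −0.0023 against the same DMSO libraries. Of 20 synthetases 15 were higher in Antimycin A.

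All 31 interferon-stimulated genes were higher in Antimycin A than in Dihydrorotenone. The differences of means use no DMSO library, although the p-values rest on the fit of all 30 libraries. The filter favoured that direction at least for Oas3. Dihydrorotenone had a list median of 0.51 against DMSO. The mitochondrial mRNAs ran opposite, with 11 of 13 lower than in Dihydrorotenone and mt-Cytb lower by 1.39 ± 0.073 on the log2 scale (limma adjusted p = 1.07e-12). Cholesterol genes were lower in 16 of 24 and matrix genes in 11 of 27. NRF2 targets were higher in 17 of 27. With mt-Cytb, the 5 largest differences downward were Dio3 (−1.65), Cbln1 (−1.62), Agtr2 (−1.55) and Ccn2 (−1.41).

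Clofilium tosylate, a potassium channel blocker, also raised Trib3 against DMSO (2.95; limma adjusted p = 4.09e-17), and was compared in the same way. Stress genes mostly did not pass in that comparison, and interferon genes were higher with Antimycin A. Clofilium tosylate was taken up with its rise of Trib3 known, so few differences among stress genes are no independent result. Of 12981 genes 722 differed (5.56%), 536 higher in Antimycin A (4.13%) and 186 lower (1.43%). The split was 354 and 291 after median-ratio scaling, 361 and 350 under quantile normalization, and 369 and 224 without the 20 most abundant genes. The count was 328 without Antimycin A replicate 1 and 450 without Clofilium tosylate replicate 1.

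Of 21 stress regulators 3 were higher in Antimycin A and 1 lower. Chac1 differed by 0.027 ± 0.14 and Mthfd2 by −0.015 ± 0.17, neither past the test, while Trib3 was lower in Antimycin A than in Clofilium tosylate, by 0.45 ± 0.11 on the log2 scale (limma adjusted p = 0.0149) and Atf4 higher by 0.21 ± 0.05 (limma adjusted p = 0.0104). Of 20 synthetases none passed in either direction.

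Of the 31 interferon-stimulated genes 23 were higher in Antimycin A and none lower. Cxcl10 differed by 1.498 ± 0.22, Rsad2 by 1.30 ± 0.17 and Mx1 by 1.19 ± 0.16 (limma adjusted p = 0.000146, 3.77e-05 and 4.72e-05). Of the mitochondrial mRNAs 10 of 13 were lower, with mt-Atp6 (−1.39), mt-Nd4l (−1.10) and mt-Cytb (−1.07) among the 5 largest differences downward beside Dio3 (−1.20) and Ccl20 (−1.15). Of their 31-base words, mt-Atp6 shares 99.5% and mt-Nd4l 98.9% with other genes. Nuclear copies were summed in only against DMSO, so the part of read splitting in either direct comparison was not tested. Cholesterol genes were lower in 11 of 24.

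The 3 compounds share the DMSO libraries, so their fold changes against DMSO are set side by side and no likeness between them is computed.

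**Figure D5:**
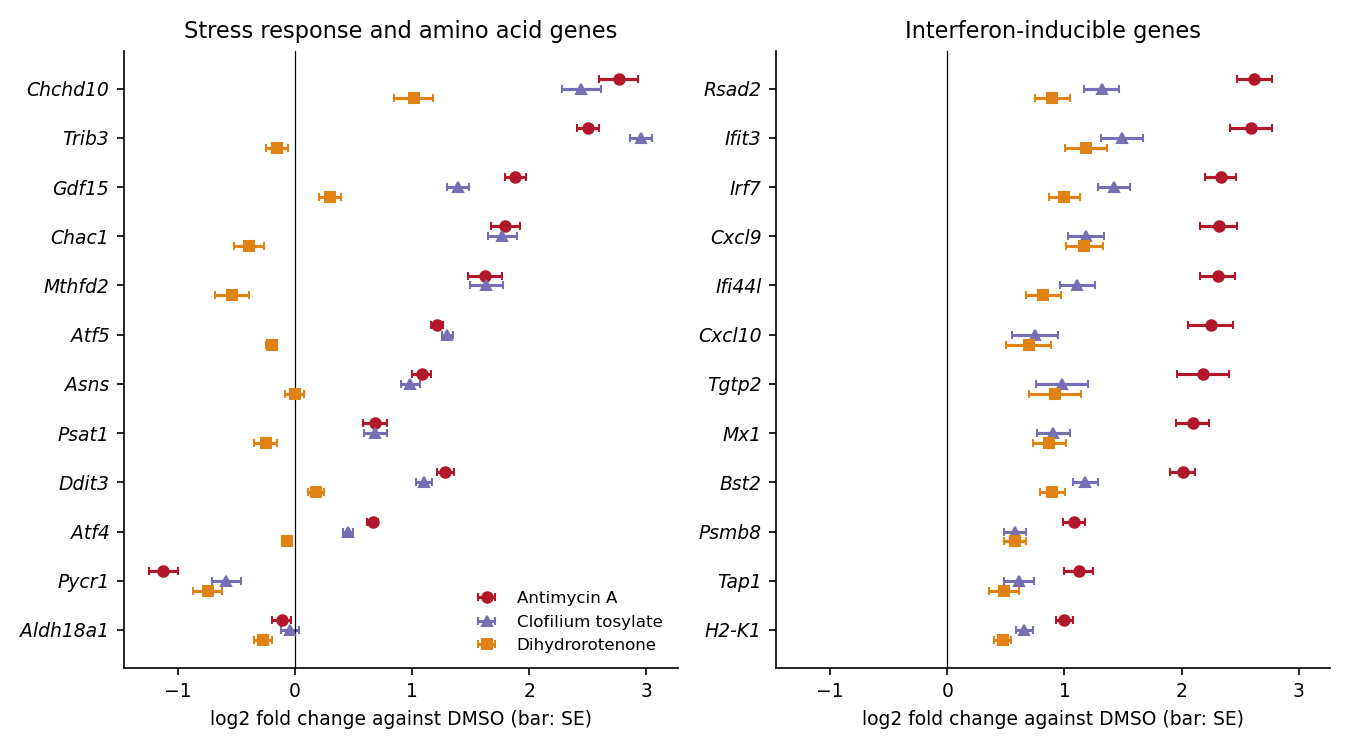
Log2 fold changes against DMSO, with SE bars, of 12 stress and amino acid genes (left) and 12 interferon-inducible genes (right) for Antimycin A (circles), Clofilium tosylate (triangles) and Dihydrorotenone (squares), which all share the same 6 DMSO libraries. Trib3 stands at 2.5000, 2.95 and −0.16 in that order, and Rsad2 at 2.62, 1.32 and 0.90.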

How the data were processed

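RNA abundance was measured by sequencing of ribosome-depleted total RNA. The authors quantified reads with kallisto 0.43.1, and FastQC and the mouse build mm10 are also named, per the submitters' processing notes. The series text adds tximport. The deposited table holds TPM made by the authors, 1 column per library. TPM is relative to the total of its library and keeps no depth, so no counting interval can be given, and the listed genes sum to 92.7% to 93.7% of the full scale of a library. The transcript index is not given in the sources used here.

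Groups follow the treatment labels. The labels give 6 DMSO libraries, 1 more than the 5 in the series text, and all were used. Genes were matched to GENCODE M21 (GRCm38), which gave a symbol for 29426 of 29861. Values were taken as log2(TPM + 1), and all 30 libraries were fitted with limma 3.58.1 (R 4.3.3), 1 mean per group, with an intensity trend. Benjamini-Hochberg adjustment ran over all 12981 tested genes within each contrast, threshold 0.05. Of these genes, 42 reached the filter through Antimycin A libraries alone, with no DMSO library at 1 TPM. Their calls higher are no independent support. Genes with some DMSO libraries at that level, but too few to pass without Antimycin A, are not in that count. The filter could favour calls higher for such genes too. The fit was tested on simulated data.

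Named genes are the 12 largest rises and 12 largest falls among called genes that average 5 TPM or more in the group where they are higher, with every Antimycin A library outside the DMSO range and a symbol that is no predicted-gene, Riken, pseudogene or clone name. To these were added up to 3 called members of each list in each direction, and 5 per direction in each direct contrast. Other list members may be named with their value. The members and the 49 gene lists (836 of 845 symbols matched) were chosen with earlier results of these data known. Sequences are RefSeq promoter windows of GRCm38.p6. The share of 31-base words of a gene's transcripts that occur in other genes' transcripts was computed from GENCODE M21. A few list members are not reported here by name. Alternatives covered pseudocounts of 0.1 and 0.5, filters, scalings, the fit of only the groups compared, a replicate block and leaving out each library.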

Additional observations from a re-analysis of the deposited data

Results flagged for a closer look

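Within the 6 DMSO libraries, 11 of 182 named genes had 1 library far from the other 5, by Dixon's criterion for the gap over the range. Chance alone flags about 1 in 20 groups. Replicate 4 was the library in 5 of them. It was the highest for Sars (146 TPM, next 129), Afg3l2 (42.9, next 38.2) and Hspa9 (161, next 149.7), and the lowest for Prdx4 (271, next 293) and Tmem173 (44.6, next 52.4). Replicate 6 was the highest for Cbln1 (49.7 TPM, next 44.6) and the lowest for Tap1 (24.1, next 30.3). Replicate 1 was the lowest for Trib3 (3.05 TPM, next 4.26), replicate 2 the highest for Ddit3 (97.04, next 83.7), replicate 5 the highest for Idi1 (32.5, next 27.6) and replicate 3 the lowest for Cdk1 (30.1, next 31.7). All 11 genes kept their call and direction in Antimycin A without that DMSO library.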

How the results depend on the processing

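Over the 20 alternatives per gene, 150 of the 182 named genes kept their direction and their call in every alternative that tested them, 32 lost the call in at least 1 and none reversed. The count of genes changed against DMSO lay between 4133 (without Antimycin A replicate 1) and 5230 (no filter), and was 5112 without DMSO replicate 4. The count against Clofilium tosylate fell from 722 to 457 when only those groups were fitted, and to between 328 and 526 when 1 library was left out; the cause was not tested beyond there being fewer samples. Of the lists' totals of rises and falls together, 28 in 10 lists moved by over 1.5 times; counts in 1 direction that rest on 1 or 2 genes move more easily. Same-numbered Antimycin A and DMSO libraries deviated from their group means with correlations of 0.007, 0.026 and 0.039, and nothing in the labels ties the numbers, so they were not treated as pairs; with a replicate block 4715 genes were called. Depth is unknown, and a gene near 1 TPM may change without being called.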

Other observations

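Some large changes lay in genes that the naming rule left out by their symbol, and these were chosen after their values were seen. Gm6750, a processed pseudogene, had 17.8, 11.6 and 27.96 TPM in Antimycin A and 0 to 5.33 TPM (median 0.626) in DMSO, a log2 change of 3.29 ± 1.20 (limma adjusted p = 0.0313), above every named rise. Gm8815, another pseudogene, had 23.1, 32.9 and 24.4 TPM and 0.0407 to 14.3 TPM (median 2.94), a log2 change of 3.03 ± 0.80 (limma adjusted p = 0.00377). Gm6750 shares 89.5% of its 31-base words with other transcripts, Hmgn2 among them. Gm20594 on chromosome 6, a predicted gene, was among the more abundant genes that rose, at 854, 967 and 838 TPM in Antimycin A and 182 to 259 TPM (median 227) in DMSO, a log2 change of 1.999 ± 0.11 (limma adjusted p = 7.08e-13). Its 3 treated libraries were all above the controls. It was also higher than in Dihydrorotenone by 1.97 and than in Clofilium tosylate by 1.61 (limma adjusted p = 1.44e-10 and 4.15e-08). It shared 10% of its 31-base words with other transcripts, all of them with the mitochondrial 16S ribosomal RNA gene mt-Rnr2. BerberineA, by median, had the only higher group, with 1828 to 2033 TPM. Gm4070, which shares 98.6% of its 31-base words, mostly with the interferon-inducible GTPase gene Gvin1, rose from 2.01 to 4.13 TPM (median 2.97) in DMSO to 13.6, 11.8 and 10.8 TPM.

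The lowest fold changes of the comparison were −5.28 for Gm10800 and −4.37 for Gm10801. Both belong to the repeat-rich predicted genes of chromosomes 2 and 9 that were mostly higher in the libraries with the highest numbers. Gm10800 had 0.317, 0.254 and 0 TPM in Antimycin A and 22.3 to 258 TPM (median 32.3) in DMSO. DMSO replicate 6 held 585 TPM over the 6 genes and the other 5 DMSO libraries 54.3 to 97.5 TPM. Against Dihydrorotenone Gm10800 differed by −1.25 and against Clofilium tosylate by −1.04 (limma adjusted p = 0.345 and 0.557), neither past the threshold. Without DMSO replicate 6 the count of genes called between Antimycin A and DMSO was 5076, against 5064 with it.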
